A study of Arabidopsis thaliana with 64 samples.

Results

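The samples described here were shoots of wild-type (WT, Col-0) *Arabidopsis thaliana* plants grown under blue light, chosen by their labels for genotype, organ and light. They were 2 phosphate (Pi)-deficient and 2 Pi-sufficient samples, or 4 of the 64 arrays of the series, and each was total RNA of whole shoots hybridised to 1 one-colour Agilent array. By their labels the plants of both groups were 3 weeks old, carried no mutation or transgene and grew on MS-based agar at 23°C, and the labels of the groups differ in Pi supply alone. The labels give 16 h of light per day and the study's methods describe constant light for the blue- and red-light plants, and which holds could not be settled. For comparison, WT shoots under red light gave 2 Pi-deficient and 2 Pi-sufficient arrays of the same age, WT roots under blue light gave 2 and 2, and 4-week-old WT shoots under white light (labelled leaf) gave 12, with 3 per Pi level in each of 2 sets, the *hy5* set and the *BBX32* set. The methods call the 2 replicates of the light set biological replicates, and the p values measure the spread between such pairs.

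Plants take up Pi, mostly from the soil solution, through membrane transporters, and a shortage is answered by a programme run largely by PHR1, a MYB transcription factor. When Pi is ample, SPX proteins bound to inositol phosphates hold PHR1 back, and when it is scarce, PHR1 binds the promoters of phosphate starvation-induced (PSI) genes. In shoots the programme frees Pi from phospholipids, RNA and small metabolites, replaces phospholipids of the membranes by galactolipids and sulfolipids, and raises the export of Pi between organs. Shoots also see the light, and blue light is perceived there by cryptochromes and phototropins.

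Values are given as relative signals, the intensity of a probe divided by the 75th percentile of its array, so that 1 is that percentile. A gene was represented by its brightest probe and tested where that probe was well above background on every array of at least 1 of the 4 shoot groups under blue or red light. This left 17158 of 26759 genes, compared by limma on the log2 scale in a fit of the 8 shoot arrays under blue and red light. A gene was called where its adjusted p was under 0.05 and its fold change over 2 or under 0.5. A probe not well above background on any array of 1 group has only a limit there, and its change is given as at least that fold, as the mean of the bright group over the mean detection level of the dim one.

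The arrays were dim, with a 75th percentile of 79.2 to 124 intensity units, and they differed between the groups in detection. Of all probes, 60.03% and 59.2% were well above background on the Pi-deficient arrays, against 45.0% and 48.5% on the Pi-sufficient arrays. The lowest intensity well above background was 9.04 and 9.31 units on the Pi-deficient arrays and 17.7 and 12.9 units on the Pi-sufficient arrays. Neither measure overlapped between the groups, and their part in the results below was not tested. All 10 leaf markers were above background on all 4 arrays. Of 12 root markers, 7 were above background on neither Pi-deficient array and 10 on neither Pi-sufficient array, among them *PLT1*, *CASP2*, *EXPA18*, *PRP3*, *FRO2* and *TIP2;3* in both groups. The brightest was *PYK10*, a beta-glucosidase of endoplasmic reticulum bodies, with relative signals of 47.5 and 32.0 in Pi-deficient and 16.7 and 17.9 in Pi-sufficient shoots. Its log2 fold change was 1.17 (adjusted p = 0.00912), or 0.88 (adjusted p = 0.0505) without Pi-deficient replicate 1. In RNA of whole shoots, fewer cells of a type and less RNA per cell cannot be told apart.

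Pi deficiency changed 3454 of the 17158 genes tested (20.1%) in blue-light shoots, 1984 higher (11.6%) and 1470 lower (8.57%), while the median of all genes was -0.05 on the log2 scale. The higher genes were 57.4% of those called, or 84.9% in the authors' table of processed values, in which the median of all genes was 0.32. Of the 1984 higher genes, 918 were above background on both Pi-deficient arrays and on no Pi-sufficient array, while 36 of the 1470 lower genes were above background on both Pi-sufficient arrays and on no Pi-deficient array. Among all genes tested, 2144 had the first pattern of detection and 36 the second. Such genes could pass the filter through the group that detected them, so that their count is no independent sign of a difference. Another 40 called genes were above background on no blue-light array. Among the 13204 genes above background on all 4 arrays, 904 rose (6.85%) and 1320 fell (9.997%). The changes were large at the upper end, where 408 called genes were over 8-fold higher and 47 over 8-fold lower, of which 94 and 20 were above background on all 4. Each slide held 1 array of each shoot group. Within the slide of replicate 1, 2580 genes were over 2-fold higher and 1917 over 2-fold lower, and within that of replicate 2, 2152 and 1575. With the slide as a block 3534 genes were called, 3418 of them among the 3454. The calls of named genes were less stable than their directions, as 104 of the 219 that were called lost the call under another scaling, normexp background correction or the authors' table, and 90 kept it under every alternative that tested them. Each group kept its place on the slide, which cannot be told apart from the group. With 2 samples against 2, a permutation test of 1 gene cannot go below a two-sided p of 0.333. All calls thus rest on a model of the spread, which limma shares in part among genes. With unmoderated statistics, which use each gene's own spread over the 4 shoot groups, 2556 of the 3454 genes were called. The median SD between replicates was 0.15 log2 in Pi-deficient and 0.14 in Pi-sufficient shoots.

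**Figure D1:**
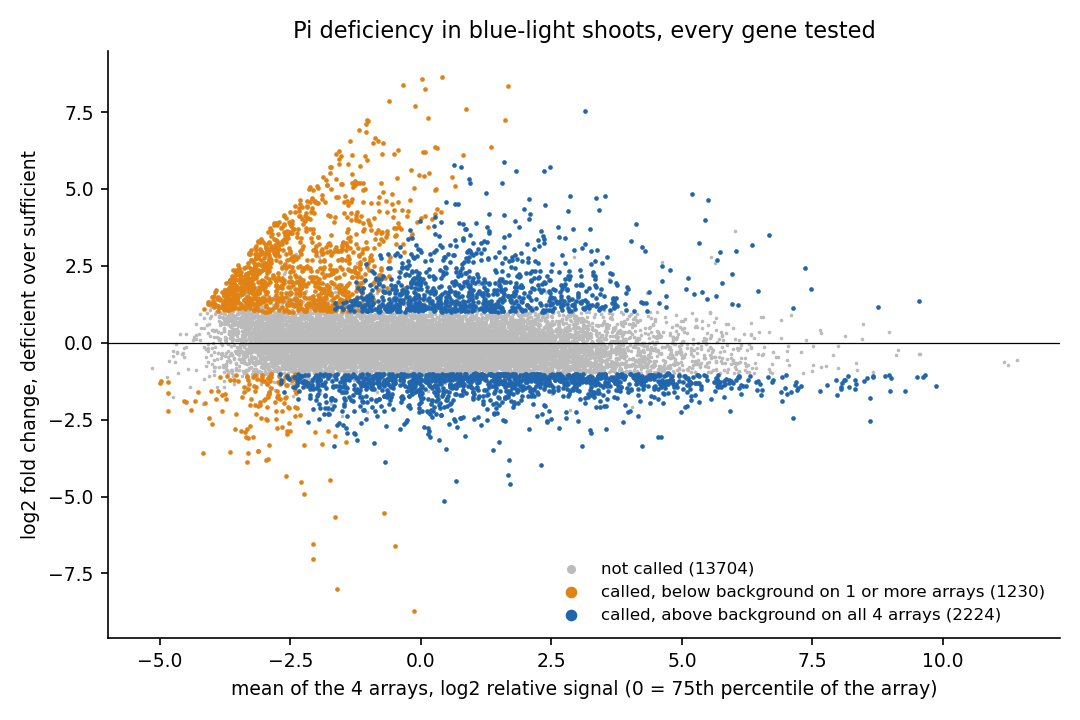
Log2 fold change of Pi-deficient over Pi-sufficient shoots under blue light (vertical axis) against the mean log2 relative signal of the 4 arrays (horizontal axis, 0 at the 75th percentile) for each of 17158 genes. Called genes above background on all 4 arrays (904 higher and 1320 lower) are set apart by colour from other called genes, which make up most of the upper left edge.

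Of genes above background on all 4 arrays, the highest log2 fold change belonged to *PPSPASE1* (AT1G73010), a pyrophosphatase that acts on small phosphate compounds. Its relative signal was 171 and 83.9 in Pi-deficient shoots, against 0.619 and 0.683 in Pi-sufficient shoots, or 7.52 on the log2 scale (SE 0.35, adjusted p = 1.17e-04). The pair of Pi-deficient values differed by more than the pair of Pi-sufficient values, and the groups lay far apart. Of the 15 highest genes, 3 others belong to the PSI programme, namely *MGD3* (log2 fold change 5.77), *PEPC1* (5.71) and *AT4* (4.84), which are described with their groups. The other 11 included several genes of defence and redox reactions. *TAT3*, a tyrosine aminotransferase induced by jasmonate, had 26.3 and 20.6 in Pi-deficient shoots, against 0.528 and 0.292 in Pi-sufficient shoots. *HCHIB*, the basic chitinase also called PR3, had 26.5 and 22.9, against 0.440 and 0.589. *TRX5*, a thioredoxin of the h type, had 55.6 and 48.6, against 3.22 and 1.26. The 15 genes were picked among those whose arrays do not overlap between the groups, so that this order of the arrays was set by the choice. *TI1*, a trypsin inhibitor, *PNP-A*, a secreted natriuretic peptide-like protein, *CHX17*, a cation/proton exchanger, *TPX2*, a peroxiredoxin, and *AGP2*, an arabinogalactan protein, had log2 fold changes of 4.76, 5.59, 5.33, 5.18 and 4.76. The rest were AT1G68620, AT1G08310 and AT2G08820, the last listed as a non-coding RNA, with 5.70, 5.18 and 4.85.

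Large changes were also found among genes not above background in Pi-sufficient shoots. *SAG13*, a dehydrogenase known as a senescence-associated gene, had relative signals of 52.5 and 62.2 in Pi-deficient shoots and was at least 281-fold higher there. *RNS1*, a secreted ribonuclease, was at least 143-fold higher, with 30.8 and 22.3 in Pi-deficient shoots. *NIT2*, a nitrilase, *ABCG40*, an ABC transporter that carries abscisic acid, and *NATA1*, an ornithine acetyltransferase induced by jasmonate, were at least 137-, 108- and 100.05-fold higher, with adjusted p from 1.32e-04 to 0.00533. The lowest of their Pi-deficient values was 14.1, for *NATA1*, so that these were bright spots and not spots just past detection.

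The lowest log2 fold changes among genes above background on all 4 arrays included several loci without a name in the reference used here. AT1G73600 had 0.110 and 0.481 in Pi-deficient shoots, against 6.202 and 10.4 in Pi-sufficient shoots (log2 fold change -5.13, SE 0.64, adjusted p = 0.00191). *XTH15*, a xyloglucan endotransglucosylase/hydrolase that remodels cell walls, had 0.422 and 1.07, against 14.8 and 17.5, or -4.58 (SE 0.53, adjusted p = 0.00151). *DIR1*, a lipid transfer protein of systemic resistance, had 3.01 and 2.36, against 28.2 and 25.9, or -3.34 (SE 0.37, adjusted p = 0.00124). These genes too were picked among those whose arrays do not overlap between the groups. *RZPF34* (AT5G22920), a ring zinc-finger protein, *DJC24* (AT2G17880), a DnaJ-type chaperone, and *SAUR13* (AT4G38825), a small auxin up RNA, had -4.30, -3.89 and -3.34. *BT1* and *BT5*, BTB and TAZ domain proteins known to respond to nitrate and sugar, had -3.36 and -3.49. Neither was called without Pi-deficient replicate 1 (adjusted p = 0.0668 and 0.113) or Pi-sufficient replicate 2 (0.0527 and 0.0682), nor *BT1* without Pi-deficient replicate 2 (0.0541) and *BT5* without Pi-sufficient replicate 1 (0.069). AT4G10270 and AT4G19430 (-3.82 and -3.25) likewise had an adjusted p of 0.112 and 0.0798 without Pi-deficient replicate 1 and of 0.0742 and 0.0608 without Pi-sufficient replicate 2, and AT4G10270 of 0.0655 without Pi-sufficient replicate 1. Among genes not above background in Pi-deficient shoots, AT2G14247 was at least 67.2-fold lower and AT5G00650, AT1G47400, AT1G11740 and AT3G21460 at least 35.0-, 29.3-, 29.1- and 14.9-fold lower.

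Inhibitors and non-coding RNAs of Pi signalling were higher in Pi-deficient shoots, and *PHR1* was not called. Of the 17 genes of Pi sensing and signalling, 16 were tested, 9 rose and 2 fell, with a median log2 fold change of 1.37 against -0.05 for all genes tested. Of the 10 above background on all 4 arrays, 5 rose and 1 fell. *SPX1*, a nuclear inhibitor of PHR1, had 15.5 and 11.96 in Pi-deficient shoots, against 0.909 and 1.09 in Pi-sufficient shoots (log2 fold change 3.77, SE 0.21, adjusted p = 1.64e-04). *SPX2*, its close relative, had 5.58 and 4.40, against 1.67 and 1.87 (1.49, adjusted p = 0.00251). *SPX3* was above background in Pi-deficient shoots alone, with 17.2 and 10.5, and was at least 73.05-fold higher. In these 3 inhibitors both Pi-deficient arrays lay above both Pi-sufficient arrays, which held for 34.1% of all genes tested (38% had the opposite order), while *SPX4*, which is known to be degraded under Pi deficiency as a protein, was above background on none of the 4 arrays, so that no fold is given although it is counted among the lower genes. *IPS1* and *AT4* are non-coding RNAs that bind the microRNA miR399 and so protect the ubiquitin-conjugating enzyme transcript *PHO2*. *AT4* had 234 and 163, against 7.25 and 6.45 (4.84, SE 0.45, adjusted p = 7.23e-04), and *IPS1*, with 8.12 and 4.25 in Pi-deficient shoots, was at least 32.0-fold higher. *PHO2* had 7.68 and 10.1, against 3.77 and 3.64, a log2 fold change of 1.25 (adjusted p = 0.0107) that was 1.05 (adjusted p = 0.0605) without Pi-deficient replicate 2. *NLA*, a ubiquitin ligase that removes Pi transporters from the membrane, fell, with 0.422 and 0.642, against 1.08 and 1.28 (-1.18, adjusted p = 0.00916), and missed the fold limit without Pi-deficient replicate 1 (-0.88). Neither *NLA* nor *SPX4* was called with normexp or in the authors' table. *PHR1* had 1.15 and 1.25, against 1.44 and 1.48, and was not called (-0.29, SE 0.14, adjusted p = 0.144). Of the WRKY factors of the list, *WRKY75*, a regulator of Pi starvation and senescence genes, was at least 18.1-fold higher, and *WRKY6*, a repressor of *PHO1* known from low-Pi studies, had 4.90 and 4.19, against 0.996 and 0.952 (2.22, adjusted p = 2.66e-04).

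Importers and exporters of Pi were higher, and a chloroplast transporter was not. Of 14 transport genes, 10 were tested and 6 rose, with a median of 1.67, and of the 5 above background on all arrays, 3 rose. *PHT1;1*, a high-affinity importer, had 5.90 and 6.07 in Pi-deficient shoots, against 1.41 and 1.66 in Pi-sufficient shoots (log2 fold change 1.97, SE 0.19, adjusted p = 7.93e-04). *PHT1;4*, another importer, had 3.81 and 2.82, against 0.0463 and 0.267, of which the first Pi-sufficient value was below background (4.88, SE 0.71, adjusted p = 0.00322). *PHT1;5*, which moves Pi between source and sink organs, was at least 4.95-fold higher, and *PHO1*, the Pi exporter of the vasculature, at least 4.57-fold higher. *PHO1;H1*, its homologue, had 2.52 and 1.57, against 0.631 and 1.004 (1.32, adjusted p = 0.0205), and was not called without Pi-deficient replicate 1 (0.98, adjusted p = 0.118) or Pi-sufficient replicate 1 (0.99, adjusted p = 0.0985). AT1G63010, listed as *PHT5;1*, had 6.18 and 5.90, against 2.31 and 2.38 (1.36, adjusted p = 8.87e-04). *PHT2;1*, a Pi transporter of the chloroplast envelope, had 23.8 and 21.8, against 45.0 and 38.3, and missed the fold limit (-0.86, SE 0.20, adjusted p = 0.0157). With normexp background correction the median was 0.93, 4 of the list rose, and *PHO1* and *PHO1;H1* were not called. *PHT1;2*, *PHT1;3*, *PHT1;6* and *PHT1;9* were too dim to be tested. The *PHT1* genes are close in sequence, and signal of 1 member on the probe of another cannot be set apart.

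Most of the called enzymes that release Pi were higher. Of 34 acid phosphatases, related phosphatases and ribonucleases, 30 were tested, 17 rose and 2 fell, with a median of 1.55, and 7 rose and 1 fell among the 16 above background on all 4 arrays. With normexp the median was 0.38, and 12 rose and none fell, while in the authors' table it was 2.41. *PEPC1* (AT1G17710), here a phosphatase of phosphoethanolamine and phosphocholine and not the carboxylase of a like name, had 56.3 and 28.3 in Pi-deficient shoots, against 0.690 and 0.846 in Pi-sufficient shoots (5.71, SE 0.33, adjusted p = 1.87e-04). *PAP17*, the purple acid phosphatase also called ACP5, had 57.3 and 45.9, against 4.09 and 6.51 (3.31, SE 0.25, adjusted p = 3.91e-04). *PAP12*, a secreted phosphatase, had 16.8 and 11.6, against 2.17 and 2.54 (2.57, SE 0.22, adjusted p = 5.59e-04). In all of these both Pi-deficient arrays lay above both Pi-sufficient arrays, as in 34.1% of all genes tested. *PAP14*, with 16.9 and 11.4 in Pi-deficient shoots, was at least 75.4-fold higher, and *PAP5* and *PAP7* at least 21.2- and 4.77-fold. *PAP1* had a log2 fold change of 4.14 and *PAP8* of 3.02. *PAP10*, known for its activity at the root surface, was higher by 1.05 and not called without Pi-deficient replicate 1 (0.91, adjusted p = 0.0678) or Pi-sufficient replicate 1 (0.76). Some other members were not called. *PAP26*, the main vacuolar phosphatase of leaves, had 2.64 and 3.14, against 3.18 and 3.36 (-0.18, SE 0.15, adjusted p = 0.391), and *RNS2*, a vacuolar ribonuclease, had 13.2 and 12.2, against 6.17 and 6.597, and missed the fold limit (0.995, adjusted p = 0.00343). *PAP3* fell, with 0.671 and 0.869, against 2.08 and 1.97 (-1.41, adjusted p = 0.00264), and *PAP13* (-1.02), above background on 1 array of each group, missed the fold limit without Pi-deficient replicate 2 (-0.95) or Pi-sufficient replicate 1 (-0.93). Neither was called with normexp. Some *PAP* genes are close in sequence and may share signal between probes.

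Genes of membrane lipid remodelling were all on the higher side. Of 20 genes, 19 were tested, 14 rose and none fell, with a median of 2.26, and 9 of the 13 above background on all 4 arrays rose. The median was 1.62 with dim genes at their limits and 1.14 with normexp, where 10 rose and *NPC4* and *DGD2* were not called. All 19 had a positive log2 fold change, from 0.17 to 5.77. *MGD3* and *MGD2*, the galactolipid synthases induced by Pi deficiency, had 15.4 and 8.50, against 0.228 and 0.192 (5.77), and 5.62 and 2.99, against 0.348 and 0.353 (3.55, adjusted p = 4.43e-04). *MGD1*, the synthase that makes the bulk of chloroplast galactolipid, had 23.5 and 24.9, against 21.5 and 21.7 (0.17, SE 0.15, adjusted p = 0.420). The inducible and the standing enzyme thus differed within 1 family. *SQD1* and *SQD2*, the last steps of sulfolipid synthesis, had 31.7 and 22.8, against 5.24 and 6.02 (2.26, adjusted p = 7.41e-04), and 14.1 and 8.30, against 1.58 and 1.62 (2.76, adjusted p = 6.43e-04). *UGP3*, which feeds them UDP-glucose, had a log2 fold change of 1.88. Of the enzymes that break phospholipids down, *GDPD1*, a glycerophosphodiesterase, had 199 and 153, against 10.7 and 11.2 (3.99, SE 0.21, adjusted p = 1.46e-04), and *PLDZETA2*, a phospholipase D, was at least 31.7-fold higher. *GDPD5* had a log2 fold change of 2.59 and *NPC3*, of the non-specific phospholipase C family, of 1.62. *NPC4*, known to be induced by low Pi, was at least 1.83-fold higher and not called without Pi-deficient replicate 1 (adjusted p = 0.0548). *DGD2*, the inducible digalactolipid synthase, had 1.97 and 1.67, against 0.631 and 0.971 (1.21, adjusted p = 0.0102), and was not called without Pi-deficient replicate 1 (1.09, adjusted p = 0.0665) or Pi-sufficient replicate 1 (0.90).

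**Figure D2:**
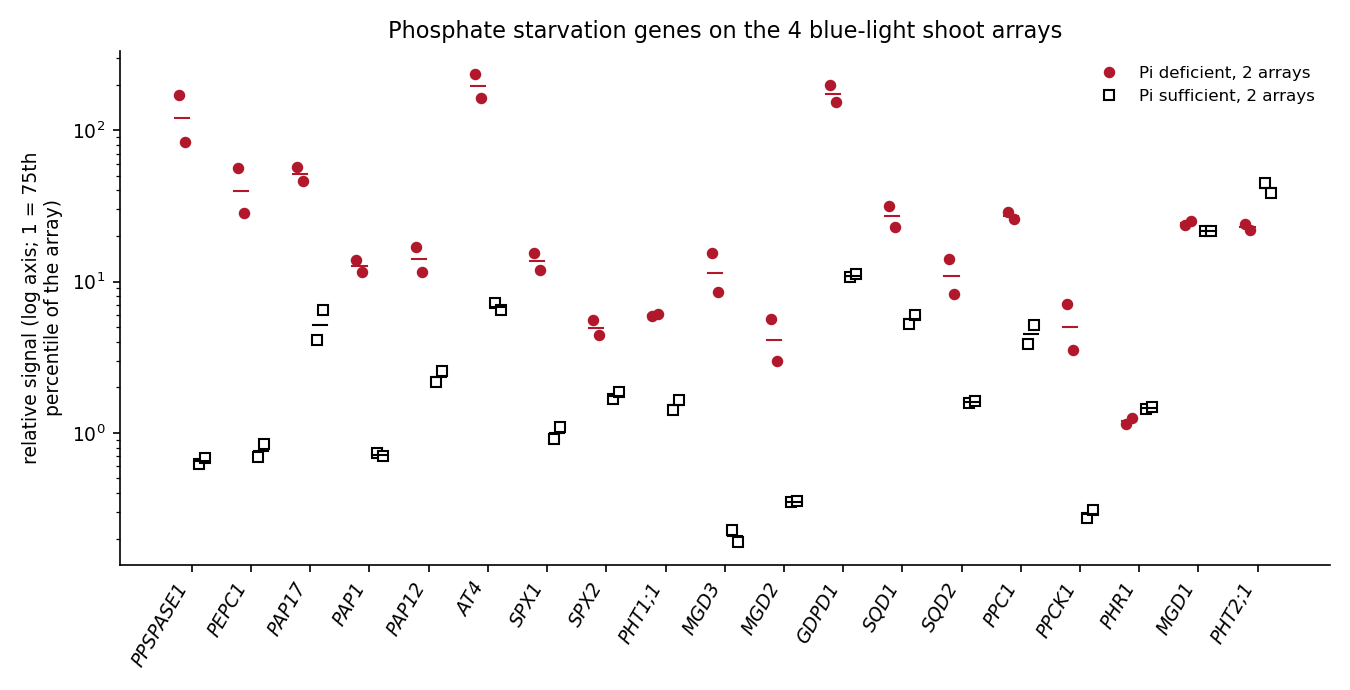
Relative signal (log axis, 1 at the 75th percentile of the array) of 19 genes of the Pi programme that were above background on all 4 arrays, with 1 point per array and a line at the geometric mean of each pair, Pi-deficient left of Pi-sufficient. In the 16 called genes the Pi-deficient pair lies above the Pi-sufficient pair, and *PHR1*, *MGD1* and *PHT2;1* are shown as members that were not called.

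In carbon metabolism, enzymes of the bypass that spares Pi rose, and most enzymes of starch turnover were not called. Of 26 genes, 25 were tested and 7 rose, with a median of 0.17, and 3 rose among the 21 above background on all arrays. Over all genes, 11.6% of those tested and 6.85% of those above background on all 4 arrays rose. *PPC1*, a phosphoenolpyruvate carboxylase, had 28.6 and 26.0 in Pi-deficient shoots, against 3.88 and 5.18 in Pi-sufficient shoots (2.61, SE 0.18, adjusted p = 3.22e-04), and *PPCK1*, the kinase that activates it, had 7.10 and 3.51, against 0.274 and 0.311 (4.10, SE 0.34, adjusted p = 5.09e-04). *GPT2*, the inducible glucose 6-phosphate carrier of plastids, had 13.3 and 9.23 and was at least 60.4-fold higher, and *BAM5*, a beta-amylase outside the plastid, was at least 35.3-fold higher. *AMY1*, an alpha-amylase of the secretory pathway, was at least 4.54-fold higher. *ADG1* and *APL1*, subunits of the ADP-glucose pyrophosphorylase of leaf starch synthesis, had -0.44 and -0.19 and were not called, while *APL3*, a subunit induced by sugar, had 4.25 and 1.30, against 0.481 and 0.482 (2.29, adjusted p = 0.0264), and an adjusted p of 0.123 without Pi-deficient replicate 1, 0.0876 without Pi-sufficient replicate 1 and 0.0878 without Pi-sufficient replicate 2. *SS1* and *SBE2.2*, a starch synthase and a branching enzyme, both had -0.93 and missed the fold limit with adjusted p of 0.00554 and 0.00862.

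Of 11 sulfate genes tested out of 12, 4 rose and none fell, led by *SULTR3;4* of the sulfate transporter family (at least 6.70-fold higher) and by *APR1* and *APR3*, reductases of sulfate assimilation. *APR1* had 3.94 and 4.04 in Pi-deficient shoots, against 1.24 and 1.36 in Pi-sufficient shoots (1.62, adjusted p = 0.00411), and *APR3* had 1.18. The fourth, *SULTR1;3*, was not called without Pi-deficient replicate 1 (adjusted p = 0.059), Pi-sufficient replicate 1 (0.0666) or Pi-sufficient replicate 2 (0.107). With normexp 2 of the sulfate genes rose, and neither *APR3* nor *SULTR1;3* was called. Of 11 nitrate genes tested out of 15, 3 rose and 4 fell. *NIA1*, a nitrate reductase, had 7.40 and 4.88, against 36.4 and 34.8 (-2.57, SE 0.45, adjusted p = 0.00619), while *NIA2*, the main nitrate reductase of shoots, had 53.1 and 37.8, against 51.2 and 49.2 (-0.16, adjusted p = 0.719). *GLN2*, the plastid glutamine synthetase, had 35.8 and 45.2, against 88.3 and 101 (-1.23, adjusted p = 0.00899), or an adjusted p of 0.0617 without Pi-deficient replicate 1, and was not called with normexp, after quantile normalization or in the authors' table. *NRT1.8*, which takes nitrate back from the xylem, was at least 4.45-fold higher. The nitrate genes moved in both directions, with a median of -0.05 that turned positive after quantile normalization (0.31). Over all genes tested 11.6% rose and 8.57% fell, beside which the sulfate, nitrate and iron counts are to be read. Of 12 iron genes tested out of 16, none rose and 4 fell. *NAS4*, a nicotianamine synthase, had 0.0693 and 0.0993, against 0.297 and 0.425 (-2.099, adjusted p = 0.00353), of which 1 Pi-deficient array was above background, and the other 3, *NAS1*, *OPT3* and *BHLH101*, were not called without Pi-deficient replicate 1 (adjusted p = 0.0765, 0.0665 and 0.0557). With normexp none of these 4 was called. *FER1*, a ferritin, had 13.4 and 6.89, against 3.09 and 5.60, and was not called (1.21, adjusted p = 0.0813).

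Photosynthesis genes were lower as a group. Of 51 nuclear genes named as light-harvesting proteins (LHCA, LHCB, CAB), photosystem subunits (PSA, PSB), plastocyanin (PETE) or small subunits of Rubisco (RBCS), 50 were tested, all 50 were above background on all 4 arrays, and 43 fell, with a median of -1.32 against -0.05 for all genes. All 50 had negative log2 fold changes, between -2.21 and -0.66. *LHCA1*, an antenna protein of photosystem I, had 225 and 193 in Pi-deficient shoots, against 788 and 677 in Pi-sufficient shoots (-1.81, SE 0.20, adjusted p = 0.00135). *LHCB1.1*, of the main antenna of photosystem II, had 362 and 356, against 1039.7 and 1108 (-1.58, SE 0.24, adjusted p = 0.00351). *RBCS1A*, the main small subunit of Rubisco, had 536 and 589.8, against 1104 and 1254 (-1.07, adjusted p = 0.00418), and missed the fold limit without Pi-deficient replicate 1 or Pi-sufficient replicate 2 (-0.97). Of the 7 that were not called, *PSBP-1*, *NPQ4* and *LHCB4.1* had -0.94, -0.93 and -0.75 with adjusted p of 0.00485, 0.00510 and 0.0121, so that they missed the fold limit alone. The count depended on the scaling. After quantile normalization the median was -0.68 and 8 of the 50 fell, with normexp background correction it was -1.11 and 28 fell, and in the authors' table of processed values it was -0.92 and 18 fell, while leaving out single arrays left 39 or 40. *LHCA1* and *LHCB1.1* were not called after quantile normalization, nor *RBCS1A* there, with normexp or in the authors' table. The leaf markers, 3 of which are in the same list, behaved alike, with 7 of 10 lower, a median of -1.09 and a summed level of 1346 and 1416 in Pi-deficient and 3160 and 3435 in Pi-sufficient shoots, and with none lower after quantile normalization.

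Genes of chlorophyll synthesis were lower to a smaller extent. Of 24 genes, all tested, 7 fell and none rose, with a median of -0.79, and 6 of the 7 were among the 23 above background on all 4 arrays (the other was *PORA*, above background on none). *CHLM*, the magnesium-protoporphyrin methyltransferase, had 6.36 and 7.003 in Pi-deficient shoots, against 16.5 and 16.5 in Pi-sufficient shoots (-1.31, SE 0.16, adjusted p = 0.00197), *CRD1*, a cyclase subunit, had 28.0 and 21.5, against 56.3 and 66.4 (-1.32, adjusted p = 0.00270), and *GSA2*, of the first steps, had 4.45 and 5.84, against 11.4 and 13.9 (-1.31, adjusted p = 0.00549). *HEMA1*, which commits glutamate to the pathway, had 38.2 and 28.3, against 31.7 and 32.8, and was not called (0.03, adjusted p = 0.914). After quantile normalization 3 of the 24 fell, without *CRD1*, and in the authors' table none, with medians of -0.58 and -0.38. With normexp 3 fell, without *GSA2*. Of chlorophyll breakdown and senescence, 10 of 11 genes were tested, 5 rose and none fell. *SGR1*, the magnesium dechelatase that starts the breakdown, had 1.68 and 1.58, against 0.490 and 0.576 (1.62, SE 0.17, adjusted p = 0.00105), and its homologue *SGR2* was at least 4.58-fold higher and not called with normexp. *PPH*, the pheophytinase, had 9.36 and 11.2, against 5.05 and 4.91 (1.04, adjusted p = 0.0118), or 0.0647 without Pi-deficient replicate 2 and 0.0525 without Pi-sufficient replicate 2. *PAO*, the next enzyme, had 0.41 and was not called (adjusted p = 0.106), and *SAG12*, a protease of late senescence, was too dim to be tested.

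Of 27 genes of light reception and signalling, all above background on all 4 arrays, 1 rose and 5 fell, with a median of -0.54, which is 6 of 27 genes where 20.1% of all genes were called. *CRY2*, a blue-light receptor, had 5.50 and 6.02 in Pi-deficient shoots, against 5.51 and 5.66 in Pi-sufficient shoots (0.04, SE 0.17, adjusted p = 0.862), and *CRY1*, the other cryptochrome, had 2.72 and 2.37, against 5.05 and 4.56, short of the fold limit (-0.92, SE 0.15, adjusted p = 0.00473). *PHOT1*, a phototropin, had 1.83 and 1.78, against 3.17 and 3.14 (-0.81, adjusted p = 0.0104). The transcription factor *HY5* had 1.67 and 1.73, against 1.32 and 1.82 (0.13, SE 0.25, adjusted p = 0.718), and the B-box protein *BBX32* had 1.49 and 0.902, against 1.08 and 1.31 (-0.04, SE 0.45, adjusted p = 0.954). The genes that fell were *RUP2*, a repressor of UV-B signalling (-1.60, adjusted p = 0.00132), *PIF1* (-1.51, adjusted p = 0.00121) and *PIF4* (-1.10, adjusted p = 0.0242), bHLH factors that bind phytochromes, *BBX25* (-1.15, adjusted p = 0.00532) and *ELIP1*, an early light-induced protein (-1.26, adjusted p = 0.0281). The gene that rose was *PIF3*, another such bHLH factor (1.15, adjusted p = 0.0116). Without Pi-deficient replicate 1, *PIF3*, *PIF4* and *ELIP1* were not called (adjusted p = 0.0748, 0.0597 and 0.156). The same held for *PIF3* and *ELIP1* without Pi-sufficient replicate 2 (0.0549 and 0.13) and for *PIF4* without Pi-deficient replicate 2 or Pi-sufficient replicate 1 (0.12 and 0.113), and without Pi-deficient replicate 2, *BBX25* missed the fold limit (-0.92). With normexp *PIF1*, *PIF3*, *PIF4* and *BBX25* were not called, and 1 gene rose and 2 fell in the authors' table, without *PIF4*, *BBX25* and *ELIP1*. *ELIP1* was also not called after quantile normalization. The clock genes are to be read beside the 8.57% of all genes tested that fell. Of 11 clock genes 3 fell, the morning genes *CCA1* (-1.07), *LHY* (-1.31) and *PRR7* (-1.18), and none of these was called without Pi-deficient replicate 2 (-0.87, -1.09 and -0.98, adjusted p = 0.0336, 0.0532 and 0.0557) or in the authors' table.

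Of 16 regulators of flavonoid and anthocyanin synthesis, 11 were tested, 3 rose and 4 fell, where 11.6% and 8.57% of all genes tested did. The activators *MYB90* and *MYB75*, MYB factors of anthocyanin synthesis, were above background in Pi-deficient shoots alone, with 1.71 and 1.02 for *MYB90* (at least 7.204-fold higher) and 1.38 and 0.318 for *MYB75* (at least 3.60-fold higher, adjusted p = 0.101, 0.0667 and 0.0651 without Pi-deficient replicate 1, Pi-sufficient replicate 1 and Pi-sufficient replicate 2). The repressors *MYBL2* and *LBD38* were lower. *MYBL2* had 2.90 and 3.00 in Pi-deficient shoots, against 17.02 and 15.03 in Pi-sufficient shoots (-2.44, SE 0.25, adjusted p = 9.89e-04), *LBD38* had 4.497 and 5.44, against 18.7 and 23.6 (-2.08, adjusted p = 0.00916, or 0.0602 without Pi-deficient replicate 1), and *LBD37* had 4.02 and 3.99, against 8.46 and 9.15 (-1.14, adjusted p = 0.00618). *MYB75* and *LBD37* were not called with normexp, nor *LBD37* after quantile normalization or in the authors' table. Of 15 genes of phenylpropanoid and early flavonoid synthesis, 2 rose and 1 fell, a share like that of all genes (20.1%), and the median was 0.71 on the slide of replicate 1 and -0.69 on that of replicate 2, so that the slides disagreed in sign. *CHS*, chalcone synthase, had 1.67 and 1.38, against 1.43 and 2.24 (-0.24, SE 0.24, adjusted p = 0.470), and *FLS1*, flavonol synthase, had 2.51 and 2.099, against 3.06 and 4.82 (-0.74, adjusted p = 0.120). *4CL5*, a coumarate ligase, stood apart with 7.61 and 6.15, against 0.714 and 0.737 (3.24, SE 0.21, adjusted p = 2.36e-04). Of 10 late anthocyanin genes 8 were tested and 1 was called, with a median of 1.61. Their count was 6 in a fit of the 4 blue-light arrays alone, 4 in the authors' table, 3 with the slide as a block and 0 after quantile normalization or with normexp, where the median was 0.44. *DFR*, dihydroflavonol reductase, had 1.90 and 0.862, against 0.144 and 0.183 (2.98, SE 1.36, adjusted p = 0.128), with a wide error and 1 Pi-sufficient array below background. The called gene, *UGT75C1*, was above background on no Pi-sufficient array and was not called without Pi-deficient replicate 1 (adjusted p = 0.205), Pi-sufficient replicate 1 (0.0972) or Pi-sufficient replicate 2 (0.135).

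Genes of jasmonate and salicylate defence were higher in Pi-deficient shoots. Of 19 jasmonate genes, all tested, 16 rose, none fell and the median was 2.598 (1.94 with dim genes at their limits), and of the 13 above background on all 4 arrays 10 rose. For synthesis, *LOX3*, a 13-lipoxygenase, had 8.28 and 6.85 in Pi-deficient shoots, against 0.677 and 0.877 in Pi-sufficient shoots (3.29, SE 0.25, adjusted p = 3.67e-04), *AOC1*, an allene oxide cyclase, had 25.2 and 18.6, against 2.51 and 2.84 (3.02, SE 0.25, adjusted p = 5.02e-04), and *OPR3*, the reductase of the last plastid product, had 16.1 and 15.9, against 3.35 and 3.02 (2.33, SE 0.22, adjusted p = 7.50e-04). *AOS*, the allene oxide synthase between them, had 6.31 and 3.52, against 3.04 and 3.15, and was not called (0.61, adjusted p = 0.319). For signalling, *JAZ1*, a repressor that jasmonate both degrades and induces, had 6.15 and 6.66, against 0.568 and 0.571 (3.49, SE 0.28, adjusted p = 4.60e-04), and *MYC2*, the transcription factor it binds, had 5.36 and 3.60, against 1.31 and 0.995 (1.94, adjusted p = 0.00566). *JAZ8* was at least 4.73-fold higher. The storage proteins *VSP1* and *VSP2*, classic markers of the response, were high and uneven, with 112 and 38.9, against 3.84 and 5.44 (3.85, SE 1.04, adjusted p = 0.0266), and 66.9 and 17.3, against 2.19 and 3.13 (3.70, SE 1.15, adjusted p = 0.0428). Without Pi-deficient replicate 1, *VSP1* and *VSP2* were not called (adjusted p = 0.147 and 0.215), nor without Pi-sufficient replicate 1 (0.101 and 0.142) or 2 (0.0738 and 0.103). The list had 10 called genes without Pi-deficient replicate 1, 11 and 12 without Pi-sufficient replicate 1 or 2, 14 without Pi-deficient replicate 2 and 10 with unmoderated statistics or with normexp, where the median was 1.08.

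All 9 genes of salicylate defence rose, with a median of 2.84 (2.596 with dim genes at their limits), and so did the 5 above background on all 4 arrays. *PR1* and *PR2*, pathogenesis-related proteins, had 10.6 and 19.8 in Pi-deficient shoots, against 0.446 and 0.101 in Pi-sufficient shoots (6.10, SE 1.14, adjusted p = 0.00749), and 16.3 and 5.98, against 0.479 and 0.114 (5.40, SE 0.99, adjusted p = 0.00714). Of each, 1 Pi-sufficient array was below background, so that these folds rest in part on background values. *PR5*, a thaumatin-like protein, was the steadiest, with 5.48 and 6.84, against 0.955 and 0.690 (2.92, SE 0.26, adjusted p = 6.55e-04). *ICS1*, the isochorismate synthase that makes most salicylate, had 3.08 and 2.36, against 0.702 and 0.851 (1.801, adjusted p = 0.00873), and *PAD4*, a lipase-like regulator, had 9.50 and 6.84, against 1.48 and 1.51 (2.43, adjusted p = 0.00495). Both hormone lists were higher in the same shoots. With unmoderated statistics 3 of the 9 were called, and with normexp 8 rose and the median was 2.16. Without Pi-deficient replicate 1, 4 of the 9 were called, and *ICS1* and *PR2* were among those that were not (adjusted p = 0.0603 and 0.0518). Of 14 class III peroxidases named in the reference, 9 were tested and 6 rose, among them all 3 above background on every array, while with normexp 3 rose and *PRXCA* was not called. The list holds only genes with a peroxidase name there, a minority of the class III family that the study examined. *PRXCB*, of the cell wall, had 19.8 and 22.7, against 1.14 and 0.613 (4.66, SE 0.37, adjusted p = 4.33e-04), *PRXCA* had 2.03 and 2.09, against 0.762 and 0.727 (1.47, adjusted p = 8.30e-04), and *PRX52*, known from lignin synthesis, was at least 33.0-fold higher, with 6.83 and 5.38 in Pi-deficient shoots.

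**Figure D3:**
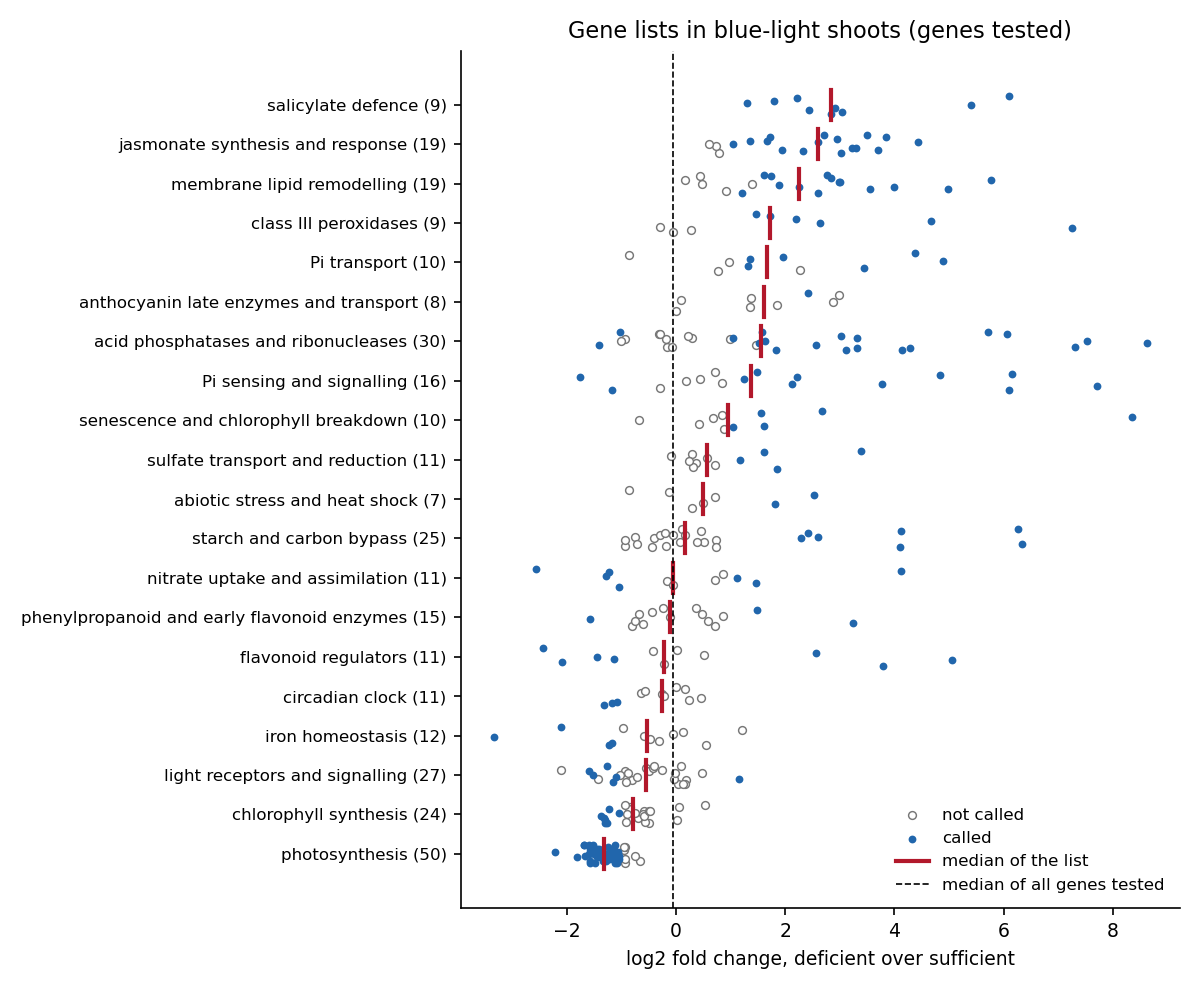
Log2 fold change of Pi-deficient over Pi-sufficient blue-light shoots for each tested gene of 20 lists, ordered by median, with called genes filled, list medians as red bars and the median of all 17158 genes as a dashed line. In this scaling salicylate defence (2.84), jasmonate (2.598) and membrane lipid remodelling (2.26) lie at the top, and photosynthesis (-1.32) lies at the bottom with a narrow spread.

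To see which of these changes depended on the colour of the light, the Pi response in blue-light shoots was set against that in red-light shoots, which shares no array with it. In red-light shoots 755 genes were called (4.4%), 652 higher (3.8%) and 103 lower (0.6%). Of the genes higher in blue light, 577 were also higher in red light, which is 29.1% of the blue-light and 88.5% of the red-light calls, and of those lower in blue light, 72 were lower in red light, or 4.90% and 69.9%. Across genes, which are not independent and whose arrays of both lights shared slides, the log2 fold changes correlated with r of 0.74, and their median size was 0.48 in blue light and 0.29 in red light. The difference between the responses was called for 256 genes (1.49%), 161 with the higher (0.938%) and 95 with the lower value (0.554%) under blue light. This count rested on single arrays, with 0 without red-light Pi-sufficient replicate 1, 2 without blue-light Pi-deficient replicate 2, 44 without red-light Pi-sufficient replicate 2, 59 without blue-light Pi-deficient replicate 1, 79 without red-light Pi-deficient replicate 2 and 138 without blue-light Pi-sufficient replicate 1. It was also 0 with unmoderated statistics, where 2838 genes had an unadjusted p under 0.05, against 3252 in limma's test. With the slide as a block 200 genes were called, of which 165 were among the 256. Of the 256 genes, 50 with the higher and 75 with the lower value were above background on all 4 blue-light arrays.

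No gene of Pi transport or membrane lipid remodelling was called in the difference, and the median of blue minus red was -0.03 for the lipid genes and 0.45 for the transporters. *PPSPASE1* had log2 fold changes of 7.52 under blue and 7.35 under red light (difference 0.17, adjusted p = 0.884), *SPX1* 3.77 and 4.31 (-0.54, adjusted p = 0.373), *SQD1* 2.26 and 2.86 (-0.60, adjusted p = 0.336) and *PPC1* 2.61 and 2.12 (0.49, adjusted p = 0.365). These differences had standard errors between 0.26 and 0.50, so that differences of that size could not be seen. Jasmonate genes had a median of 2.598 in blue and 0.67 in red light, with 16 and 3 of 19 higher, and 1 passed the test of the difference. This was *LOX3*, with 3.29 in blue and 0.08 in red light (difference 3.21, adjusted p = 0.0217), while *JAZ8* (difference 3.41, adjusted p = 0.0605), *JAZ1* (2.06, adjusted p = 0.0613) and *OPR3* (1.66, adjusted p = 0.0566) did not pass. Salicylate genes had medians of 2.84 and 2.03, with no difference called. In this scaling photosynthesis genes had -1.32 and -0.33, with 43 and 0 of 50 lower. The difference was called for 5, *LHCA3* (-1.60, adjusted p = 0.0334), *LHCB2.2* (-1.75), *LHCB6* (-1.39), *PSAO* (-1.31) and *PSAF* (-1.17).

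Named genes of other groups in the difference were *WRKY75* (difference 3.30, adjusted p = 0.0447), *PAP8* (3.32), *4CL5* (2.28), *ASN1*, an asparagine synthetase known as a dark-induced gene (2.54), *MYB113*, an anthocyanin regulator (2.74), and the peroxidases *PRX52* (3.82), *PER4* (2.99) and *PA2* (2.39), all with the higher value under blue light. *WRKY75*, *MYB113*, *PRX52*, *PER4* and *PA2* were below background on both Pi-sufficient blue-light arrays, so that these differences include a background value. *PAP8* had 3.82 and 3.19 in Pi-deficient and 0.522 and 0.354 in Pi-sufficient blue-light shoots, with log2 fold changes of 3.02 in blue and -0.30 in red light. Among the largest fitted differences were AT5G39520 (5.32), *GLYI7*, a glyoxalase I (4.99), *CCD8*, a carotenoid cleavage dioxygenase of strigolactone synthesis (4.38), AT1G62760 (4.37) and *GSTU3*, a glutathione transferase (4.32). *GLYI7* had 4.85 and 9.56, against 0.302 and 0.267, under blue light, and 0.517 and 0.638, against 1.18 and 0.487, under red light, and was the 1 of these above background on all 8 arrays. The other 4 were below background on both Pi-sufficient blue-light arrays, and *CCD8* on all red-light arrays, so that their sizes and order have no exact value. Among the lowest were AT2G30766 (-7.45), AT1G47400 (-5.69), AT1G11740 (-3.83), *SAUR61* (AT1G29420, -3.65) and *PORA*, a protochlorophyllide reductase (-3.57). AT2G30766 had 0.0171 and 0.116, against 17.65 and 20.2, under blue light, and 6.72 and 2.15, against 10.97 and 7.72, under red light. AT1G47400, AT1G11740 and *SAUR61* were below background on both Pi-deficient blue-light arrays, so that these values have no exact size. *PORA* was below background in all 4 blue-light arrays and had 1.55 and 1.63, against 0.277 and 0.375, under red light, so that its difference came from the red-light arrays.

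**Figure D4:**
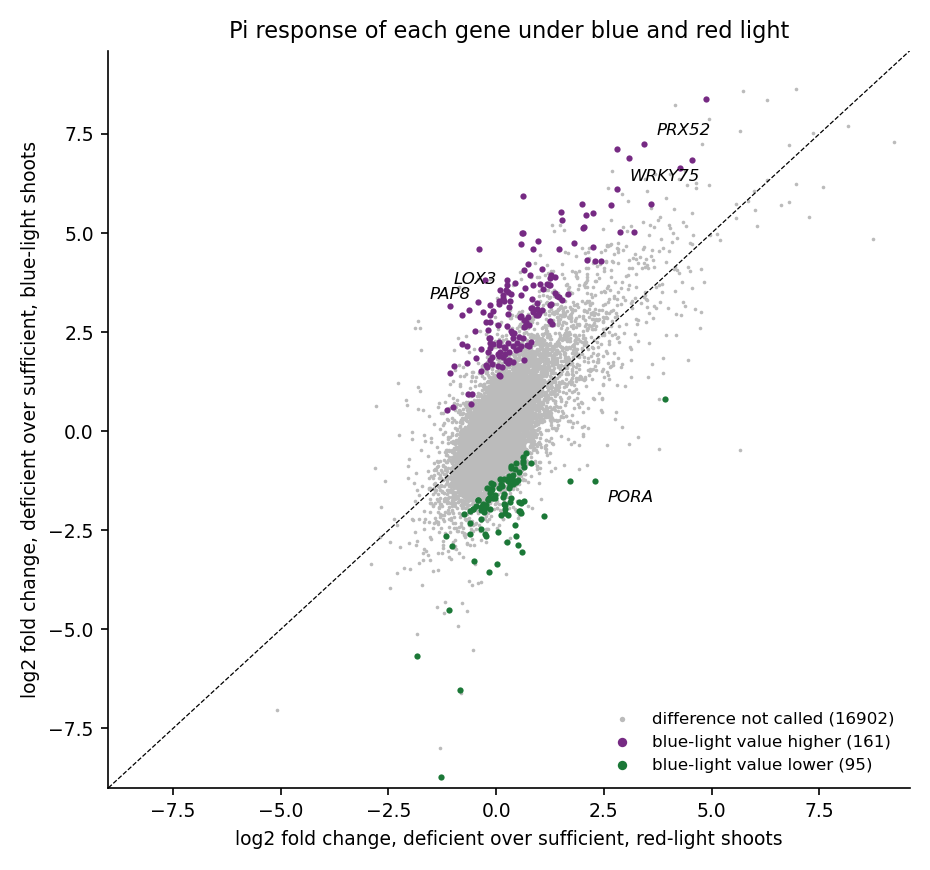
Log2 fold change of Pi-deficient over Pi-sufficient shoots under blue light (vertical axis) against that under red light (horizontal axis) for 17158 genes, with the 256 genes whose difference was called in colour and equality as a dashed line. Of the coloured genes, 161 lie above the dashed line and 95 below it.

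In roots of the same light, Pi deficiency changed 1009 genes (5.13%), 2.63% higher and 2.5% lower. The response of 1994 genes (10.1%) differed between the organs, 1233 with the higher (6.27%) and 761 with the lower value (3.87%) in shoots, or 1161 in all without blue-light Pi-deficient shoot replicate 1. Of the genes higher in shoots, 317 were higher in roots, or 16.0% of the shoot and 73.0% of the root calls among the 17158 genes tested in shoots. *UMAMIT33*, of an amino acid transporter family, had 6.19 and 3.78 in Pi-deficient shoots, where no Pi-sufficient array was above background, and 0.783 and 1.15, against 1.47 and 2.26, in roots (difference 7.85, SE 0.46, adjusted p = 5.47e-05). *PAP5*, *DXPS1* and *RNS1* also had the higher value in shoots, where none of them nor *UMAMIT33* was above background on a Pi-sufficient array, so that the sizes of these differences have no exact value. *PAP5* and *DXPS1*, a deoxyxylulose phosphate synthase-like gene, were below background in all 4 root arrays. *UMAMIT17* (7.03) and *HOL2* (-7.76) were not called in blue-light shoots and *TOM20-1* (-5.12) was too dim to be tested there, and they had 1 root group below background each, Pi-deficient roots for *UMAMIT17* and Pi-sufficient roots for the other two, with fitted values that are no exact folds. Of the acid phosphatases and ribonucleases 10 had the higher value in shoots and none the lower, and of the jasmonate genes 8 and none. Photosynthesis genes, 8 of which were lower in shoots in this test, had a median of -0.38 in roots.

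The white-light shoots were older, were labelled leaf and came from other sets of slides, which cannot be told apart from the light. Intensities of the *BBX32* set also came from another version of the extraction software. In a joint fit, 1708 genes (8.03%) differed between the Pi response under blue light and the mean of the white-light sets, 638 with the higher (3%) and 1070 with the lower value (5.03%) under blue light. On their own, the *hy5* set had 8.25% of genes called (6.43% higher and 1.81% lower) and the *BBX32* set 6.81% (6.11% higher and 0.7% lower). The split turned with the scaling, to 1123 higher and 687 lower after quantile normalization, and the count fell to 942 without blue-light Pi-deficient replicate 2, 1024 without blue-light Pi-deficient replicate 1 and 1085 without blue-light Pi-sufficient replicate 1. The lipid genes had medians of 2.26 under blue light and 2.89 and 2.23 in the *hy5* and *BBX32* sets. Photosynthesis genes had -1.32 under blue light and -0.41 and -0.13 under white light in this scaling. None of the 50 was called in either white-light set, and 25 had the lower value under blue light in the test. Jasmonate genes had 2.598, against 0.44 and 0.67, and 5 were called in the difference, *JAZ1*, *JAZ10*, *AOC1*, *LOX2* and *OPR3*. Flavonoid enzymes ran the other way. The phenylpropanoid and early flavonoid genes had a median of -0.10 under blue light and of 1.67 and 1.14 under white light, and 9 of 15 had the lower value under blue light, among them *CHS*, *CHI*, *F3H* and *FLS1*. The late anthocyanin genes had 1.61, against 3.58 and 3.06, with 1 of 8 called, *UGT78D2*. *PAP11* and *PAP19* were below background on all 4 blue-light arrays and above it on the 3 Pi-deficient arrays of the *hy5* set, with the Pi-sufficient ones below it, so that no exact difference is given. The 75th percentile of the white-light arrays was 2417 to 7267 intensity units, far above that of the blue-light arrays, and its part in such differences was not tested.

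**Figure D5:**
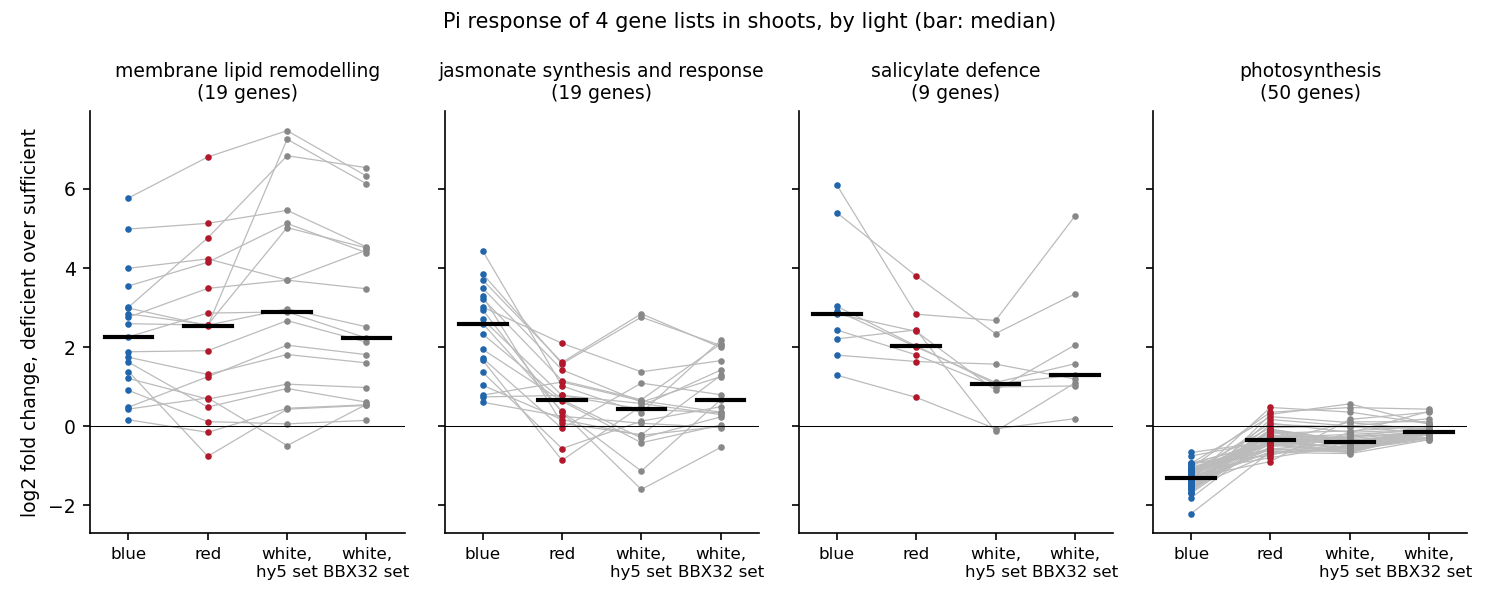
Log2 fold change of Pi-deficient over Pi-sufficient shoots for each gene of 4 lists under blue light, red light and in the white-light *hy5* and *BBX32* sets, with 1 line per gene and a bar at each median. In this scaling the lipid genes have like medians throughout (2.26, 2.54, 2.89 and 2.23). Jasmonate (2.598, 0.67, 0.44 and 0.67) and photosynthesis (-1.32, -0.33, -0.41 and -0.13) lie apart under blue light. The blue-light photosynthesis median was -0.68 after quantile normalization.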

How the data were processed

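Total RNA of 28 WT samples (8 blue- or red-light shoots, 8 blue- or red-light roots and 12 white-light shoots) was measured on one-colour Agilent arrays of 45220 spots, and the other arrays of the series were not used here. The authors scanned the arrays and deposited the spot intensities of Feature Extraction, background-subtracted and not normalized between arrays, with flags for spots well above background. Per the file headers the version was 11.5.1.1 for the light and *hy5* sets and 9.1.3.1 for the *BBX32* set. Their second deposited product, a table of processed values on a natural log scale, served as an alternative, and its centring is not given in the sources used here.

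Control spots and outlier flags were left out. Intensities were divided by the 75th percentile of their array and taken to log2. Of 43603 probes, 36291 (83.2%) were matched to a gene by accession, and the brightest of several probes was kept. Probes were tested where they were well above background on every array of at least 1 group. Genes were tested with limma 3.58.1 in R 4.3.3 over 8 shoot arrays (16 with roots, 20 with white-light shoots), with Benjamini-Hochberg adjustment over all genes of a fit, an adjusted p under 0.05 and a fold limit of 2. Tables were joined in Python 3.11.15. On simulated data for the blue-light comparison with 17158 genes, 23 of 40 genes raised 2.83-fold, 27 of 40 raised 4-fold and 38 of 40 raised 8-fold were recovered. Only 200 genes were changed there, with independent errors, whereas 8124 genes had an unadjusted p under 0.05 in limma's test of the data. These rates thus need not hold for the real comparison. The number of arrays limits the precision. Named genes were the 15 highest and 15 lowest called genes above background on all 4 arrays whose groups do not overlap. Also named were the 5 highest and lowest limits, the 5 highest and lowest differences of each comparison, and members of the gene lists. Members and lists were chosen with earlier results of these data known. Alternatives changed the scaling, the background correction, the value table, the dim-probe filter, the probe rule, the fold limit, the spread estimate, the arrays fitted and the replicate block, and left out each array in turn.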

Additional observations from a re-analysis of the deposited data

Results flagged for a closer look

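A test of the difference between Pi responses passed for 256 genes between blue and red light, 1994 between shoots and roots and 1708 between blue and white light. In each case the difference itself was tested with limma. The values below are fitted log2 differences, and where a group was below background the value includes a background signal and has no exact size or rank.

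Against red light, differences on the higher side were 5.32 for AT5G39520, 4.99 for *GLYI7*, 4.38 for *CCD8*, 4.37 for AT1G62760 and 4.32 for *GSTU3*. Apart from *GLYI7*, these were below background on both Pi-sufficient blue-light arrays, *CCD8* also on all red-light arrays, and AT1G62760 and *GSTU3* on both Pi-sufficient red-light arrays. On the lower side were -7.45 for AT2G30766, -5.69 for AT1G47400, -3.83 for AT1G11740, -3.65 for AT1G29420 and -3.57 for *PORA*. Of these, AT1G47400, AT1G11740 and AT1G29420 were below background on both Pi-deficient blue-light arrays, AT2G30766 on 1 of them and *PORA* on all blue-light arrays. Among the listed genes, antenna and photosystem I genes had the lower value under blue light, with -1.31 for *PSAO*, -1.39 for *LHCB6*, -1.17 for *PSAF*, -1.60 for *LHCA3* and -1.75 for *LHCB2.2*. The peroxidases *PER4*, *PRX52* and *PA2* had 2.99, 3.82 and 2.39, and *LOX3*, *MYB113*, *PAP8*, *4CL5*, *ASN1* and *WRKY75* had 3.21, 2.74, 3.32, 2.28, 2.54 and 3.30. *PER4*, *PRX52*, *PA2*, *MYB113* and *WRKY75* were below background on both Pi-sufficient blue-light arrays.

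Against roots, the higher side held 7.85 for *UMAMIT33*, 7.28 for *DXPS1*, 7.09 for *PAP5*, 7.07 for *RNS1* and 7.03 for *UMAMIT17*. The first 4 were below background on both Pi-sufficient shoot arrays, *DXPS1* and *PAP5* also on all root arrays, and *UMAMIT17* on both Pi-deficient root arrays. On the lower side were -8.63 for AT2G30766, -7.76 for *HOL2*, -6.70 for AT5G00650, -5.30 for AT2G14247 and -5.12 for *TOM20-1*. AT5G00650 and AT2G14247 were below background on both Pi-deficient shoot arrays and AT2G30766 on 1, AT2G30766 and AT5G00650 on all root arrays, *TOM20-1* on all shoot arrays, and *HOL2* and *TOM20-1* on both Pi-sufficient root arrays.

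Against white light, the higher side held 5.19 for AT2G38240, 4.49 for *BHLH39*, 4.44 for AT5G12340, 4.24 for *GA2OX2* and 4.22 for AT1G62760. *BHLH39* was below background on all 4 blue-light arrays and on all Pi-deficient white-light arrays, and the others on both Pi-sufficient ones. On the lower side were -7.70 for AT2G15470, -7.12 for *GolS7*, -6.97 for *PAP19*, -6.79 for *PAP11* and -6.47 for AT1G52470. All 5 were below background on every Pi-sufficient white-light array, and *PAP19* and *PAP11* on all blue-light arrays.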

How the results depend on the processing

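Of 219 called named genes, 90 kept the call under every alternative that tested them, 104 lost it under another scaling, normexp or the authors' table, 62 without a single array and 45 with unmoderated statistics. Their direction held under every alternative, apart from *PAP20* (AT3G52780), with 1.52 in blue-light shoots and -0.00241 with normexp background correction on the median spot signal. Of the 3454 genes called in blue-light shoots, the count became 1371 with normexp, 7844 with no filter on dim probes and 6275 with no fold limit, and 2604 to 3504 when single arrays were left out. The share of higher genes among calls, 57.4%, was 63.1% after quantile normalization, 63.6% with normexp, 84.9% in the authors' table and 25.2% with no filter. The 256 genes that differed between blue and red light became 403 with normexp, 1046 in the authors' table, 0 with no filter on dim probes (6935 at an unadjusted p under 0.05) and 0 with unmoderated statistics, and 0 to 348 when single arrays were left out. Leaving out single blue-light shoot arrays gave 1161 to 1664 genes for the difference from roots and 942 to 1328 for that from white-light shoots. Of 185 called genes on the lists, 113 were called with normexp and 143 to 169 with single arrays left out, and of 219 called named genes, 173 to 202. The cause of these changes was not tested.

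List medians that changed sign lay between -0.26 and 0.49. The nitrate median was 0.31 after quantile normalization, 0.021 when arrays were scaled to their detected probes' median, 0.33 in the authors' table and -0.19 to 0.26 with single arrays left out. In the authors' table, whose median of all genes was 0.32, the phenylpropanoid, flavonoid regulator and clock medians were 0.36, 0.67 and 0.18. With single arrays left out, the phenylpropanoid median was -0.43 to 0.38, that of the root markers -0.52 to 1.30 and that of abiotic stress -0.032 to 1.46.

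The replicate number of a shoot array is that of its slide. Same-numbered shoot arrays deviated together with correlations of 0.07 to 0.28, which does not meet the bar for a pairing of samples, and the block stands for the slide. With this replicate block, 3534, 200, 2396 and 2534 genes were called in the comparisons with Pi-sufficient shoots and in those with red light, roots and white light, and 3418, 165, 1939 and 1663 of these were among the genes called without it. On the lists 189 genes were called. Among named genes of the blue-light comparison 223 were called, with 4 added and none lost. Dim Pi-sufficient arrays limit what can be said of low genes to the bounds given.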

Other observations

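Gene families named in the reference, with at least 10 tested members, were ranked by their median log2 fold change after the values were seen, and no test was made of the ranking. Tau-class glutathione transferases (*GSTU*), which conjugate glutathione to reactive compounds, had the highest median, 1.82, with 12 of 22 higher and none lower. Receptor-like proteins (*RLP*) had 1.47 with 16 of 34 higher, the *ABCC* transporters of glutathione conjugates 1.37 with 8 of 13, beta-glucosidases (*BGLU*) 1.33 with 11 of 22 and phi-class glutathione transferases (*GSTF*) 1.25 with 6 of 11 higher and 1 lower. Of 44 *WRKY* factors, 21 rose and 2 fell, with a median of 1.19. The *RLP* median was 0.30 under red light and the *GSTU* median 1.19. Over all genes tested, 11.6% were called higher and 8.57% lower. Above background on all 4 blue-light arrays were 13 *GSTU*, 10 *RLP*, 9 *ABCC*, 14 *BGLU*, 8 *GSTF* and 25 *WRKY* genes. The other members were below background on 1 or more of these arrays, so that the medians and counts rest in part on background values.

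The lowest median was that of the small auxin up RNAs (*SAUR*), -1.78, with 8 of 13 lower and 2 higher. These 13 do not include *SAUR13* and *SAUR61*. Their median was 0.55 under red light, and 7 of them passed the test of the difference between blue and red light. Over all genes tested 1.49% passed it. That test called 0 genes with unmoderated statistics, and its count rested on single arrays. Genes of the *CRR* and *HCF* names had -1.06 with 5 of 10 lower and -0.98 with 6 of 12 lower. Genes named *RPL* had -0.94 with 9 of 21 lower. Fasciclin-like arabinogalactan proteins (*FLA*) and expansins (*EXPA*), proteins of the growing cell wall, had -0.86 with 5 of 12 lower and -0.73 with 4 of 10 lower. The auxin repressors *IAA* had -0.67, with 4 of 15 lower and none higher. Of these families, 10 *SAUR*, 9 *CRR*, 12 *HCF*, 20 *RPL*, 10 *FLA*, 6 *EXPA* and 13 *IAA* genes were above background on all 4 blue-light arrays. Values of the other members rest in part on background.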
